A study of Solanum lycopersicum with 2 samples.

Results

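Wound-induced anti-nutritive enzymes are leaf proteins that lower the food value of a plant for the insect that eats it. The set followed here holds 8 tomato (Solanum lycopersicum) genes of the 34725 gene models in the expression table, chosen by identifier: threonine deaminase 2, arginases 1 and 2, leucine aminopeptidase A, and 4 polyphenol oxidases, of which 3 carry chromosome 8 identifiers and 1 a chromosome 2 identifier. Their levels were read in 2 RNA-seq libraries of young primary leaf from mature plants of the cultivar Ailsa Craig. One came from plants overexpressing SlCycB2, a B-type cyclin gene (SlCycB2-OE, here OE), and 1 from SlCycB2 RNAi plants, in which the same gene is meant to be silenced (here RNAi). The study concerns the part of this cyclin in multicellular leaf hairs (trichomes), a site of chemical defence in tomato, in defence against herbivores and in reproductive organs. The promoter of the constructs, the count of independent lines and any pooling of plants are unstated in the labels, and the labels name no wounding or feeding. No wild-type library was analysed here, so a difference cannot be assigned to overexpression or to silencing alone. Each group has 1 library, so no error between replicates can be given, and every value below describes these 2 libraries, without a test between conditions.

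In tomato, wounding and insect feeding release the peptide systemin and raise jasmonate, a lipid hormone whose perception switches on a large set of defence genes. Some products of these genes act in the gut of the insect. Proteinase inhibitors slow the digestion of protein, while arginase and threonine deaminase destroy the essential amino acids arginine and threonine that digestion sets free. Polyphenol oxidases turn phenolic compounds into reactive quinones that bind to amino acids and proteins, and leucine aminopeptidase A, which removes residues from the N-terminus of peptides, also acts inside the plant on later steps of the wound response. Several of these genes belong to small families in which 1 copy answers to jasmonate and another is expressed constitutively.

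Levels are in RPKM, read counts scaled to the length of the gene model and to the mapped reads of the library, which allows levels of different genes to be compared on a per-length scale. The OE library was compared with the RNAi library as the log2 ratio of RPKM + 1, OE over RNAi, among the 19466 genes whose RPKM averaged 1 or more over the libraries. The added 1 understates the difference of genes with low values, so the plain ratio of the RPKM values is given as well for each enzyme gene above 0 in both libraries. Genes above 0 numbered 23901 in the OE library and 23804 in the RNAi library. Read totals were not given. Ratios of low values fitted whole read numbers best where 1 read was worth 1.02 times as much RPKM in the OE library as in the RNAi library, in a scan of that factor from 0.497 to 2.01. The absolute depth, and with it the counting error of each value, is unknown. The table pairs no identifier with a name, and SlCycB2 itself was therefore not checked by name.

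Of the 8 genes, 7 reached a mean RPKM of 1. Of these 7 genes, 5 passed 2-fold in the higher direction in the OE library, as did 2.6% of all genes compared. In the lower direction 1 passed, as did 1.92% of all genes compared. The remaining 1 lay within 2-fold. At a 4-fold limit, 4 were higher, against 0.493% of all genes compared, and 0 were lower, against 0.509%. The median log2 ratio was 2.96 over the 7 genes and 2.03 over all 8, against 0.13 over all genes compared. Threonine deaminase 2, arginase 2 and the polyphenol oxidase Solyc08g074680 were under 1 RPKM in the RNAi library and entered the comparison through their OE value, so these counts and medians are given as a description. Over all genes compared, 506 were higher and 373 lower at the 2-fold limit. After centring on the median ratio, a shift of 0.13 (log2), these numbers were 369 and 482, and 4 of the enzyme genes were higher and 1 lower.

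**Figure D1:**
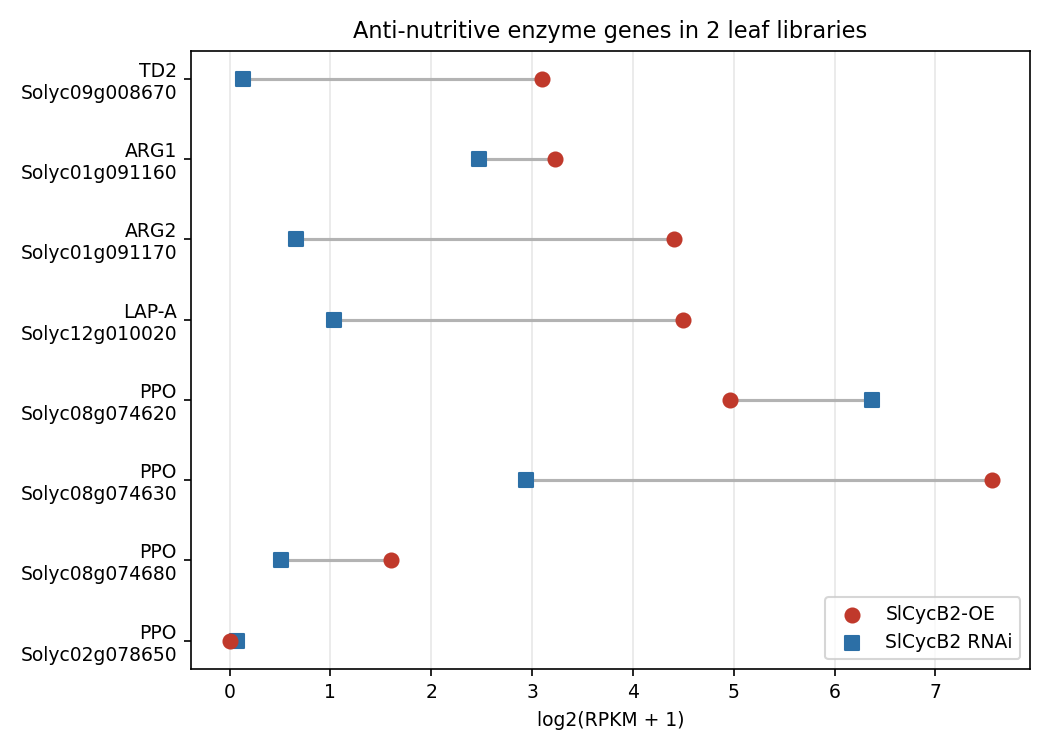
Level of each of the 8 enzyme genes as log2(RPKM + 1) on the horizontal axis, with circles for the single SlCycB2-OE library and squares for the single SlCycB2 RNAi library. The OE circle lies to the right of the RNAi square for 6 genes, and the order is turned round for the polyphenol oxidase Solyc08g074620 and, near 0, for Solyc02g078650.

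Threonine deaminase 2 (Solyc09g008670, on chromosome 9 by its identifier) breaks threonine down to ammonia and a keto acid. Proteases in the gut of the insect remove the regulatory end of the enzyme, after which isoleucine no longer restrains it. The gene stood at 7.57 RPKM in the OE library, against 0.1 RPKM in the RNAi library. It was thus near the floor of the RNAi library, at the 2.23 percentile of detected genes there, and close to the middle of the OE library, at the 52.1 percentile. The plain ratio was 75.7, the largest of the 7 genes with a value above 0 in both libraries. Since values were deposited with 2 decimals, rounding alone leaves that ratio anywhere between 72.0 and 79.7. The counting error of the low RNAi value is unknown and is not part of that range. The log2 ratio with the added 1 was 2.96, and 35 of the 19466 genes compared had a ratio at least as high.

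The arginases hydrolyse arginine to urea and ornithine, and both lie on chromosome 1 with consecutive identifiers. Arginase 2 (Solyc01g091170), the copy known in tomato leaves for its response to wounding and jasmonate, was at 20.28 RPKM in the OE library, against 0.58 RPKM in the RNAi library. The plain ratio was 35.0 and the log2 ratio 3.75, which 18 of the genes compared reached or passed. The RNAi value was low, at the 13.8 percentile of detected genes there. With 0.1 added in place of 1 the log2 ratio was 4.91, and with 5 added it was 2.18. Arginase 1 (Solyc01g091160) was at 8.37 RPKM in the OE library, against 4.54 RPKM in the RNAi library. The plain ratio was 1.84 and the log2 ratio 0.76, within 2-fold, and 5.2% of genes compared had a ratio at least as high.

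The balance between the arginase genes was therefore unlike in the libraries. In the OE library arginase 2 was 2.42 times arginase 1 and made up 70.8% of their summed RPKM, whereas in the RNAi library it was 0.128 times arginase 1 and made up 11.3%. This ratio of ratios, 19.0, does not depend on how the libraries are scaled. It does rest on the low RNAi value of arginase 2, whose counting error is unknown. The sum of both arginases was 28.65 RPKM in the OE library, against 5.12 RPKM in the RNAi library, a ratio of 5.6.

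Leucine aminopeptidase A (Solyc12g010020, on chromosome 12) is the acidic, wound- and jasmonate-responsive leucine aminopeptidase of tomato. It was at 21.52 RPKM in the OE library, against 1.05 RPKM in the RNAi library. The plain ratio was 20.5 and the log2 ratio 3.46, and 25 of the genes compared were at least as high. The next identifier, Solyc12g010030, was at 11.37 RPKM in the OE library, against 1.67 RPKM in the RNAi library, a log2 ratio of 2.21. The one after it, Solyc12g010040, was at 90.44 RPKM in the OE library, against 93.24 RPKM in the RNAi library, a log2 ratio of -0.04. RefSeq lists the symbol LAPA1 on chromosome 12, but its table does not hold these identifiers, so neither neighbour is given a name here. The sum of Solyc12g010020 and Solyc12g010030 was 32.89 RPKM in the OE library, against 2.72 RPKM in the RNAi library.

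**Figure D2:**
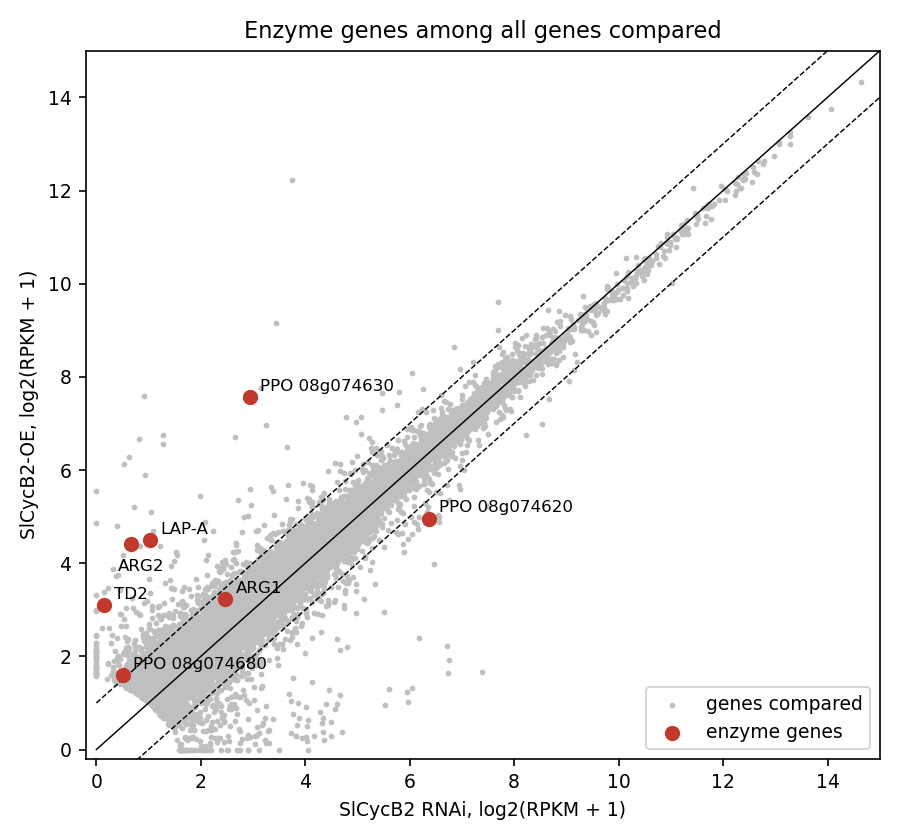
Each grey point is 1 of the 19466 genes compared, with log2(RPKM + 1) in the SlCycB2 RNAi library on the horizontal axis and in the SlCycB2-OE library on the vertical axis; red points are the 7 enzyme genes that averaged 1 RPKM or more, the solid line marks equal values and the dashed lines 2-fold. Threonine deaminase 2, arginase 2, leucine aminopeptidase A and the polyphenol oxidase Solyc08g074630 stand far above the upper dashed line, Solyc08g074680 lies on its edge and Solyc08g074620 is below the lower one.

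Polyphenol oxidases use copper and oxygen to oxidise phenolics, and the tomato family sits largely in a cluster on chromosome 8, whose copies differ in the tissues that use them, glandular trichomes included. The 3 chromosome 8 genes did not move together. Solyc08g074630 was at 187.29 RPKM in the OE library, against 6.66 RPKM in the RNAi library, a plain ratio of 28.1 and a log2 ratio of 4.62, and 12 of the genes compared were at least as high. It ranked at the 97.3 percentile of detected genes in the OE library and at the 51.8 percentile in the RNAi library.

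The adjacent identifier went the other way. Solyc08g074620 was at 30.07 RPKM in the OE library, against 81.58 RPKM in the RNAi library, a plain ratio of 0.369, so that the RNAi value was 2.71 times the OE value. The log2 ratio was -1.41, and 1.07% of genes compared were at least as low. It was the highest of the 8 genes in the RNAi library and the second in the OE library. Solyc08g074680 was far lower, at 2.03 RPKM in the OE library, against 0.42 RPKM in the RNAi library, a plain ratio of 4.83. At these low values the added 1 brought the log2 ratio to 1.09, just past 2-fold. That log2 ratio was 0.96 after centring on the median ratio, within 2-fold, and 2.03 with 0.1 added in place of 1, past 4-fold. Among the genes compared with a mean RPKM within 2-fold of its own, 5.76% were at least 2-fold higher. The chromosome 2 gene, Solyc02g078650, was listed at 0 in the OE library, against 0.05 RPKM in the RNAi library, and was below the filter on low values.

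As a class the 4 polyphenol oxidases summed to 219.39 RPKM in the OE library, against 88.71 RPKM in the RNAi library, a ratio of 2.47. The smaller difference of the sum covers an exchange of the leading copy. Solyc08g074630 held 85.4% of the sum in the OE library and 7.51% in the RNAi library, while Solyc08g074620 held 13.7% in the OE library and 92.0% in the RNAi library. Within the OE library Solyc08g074630 was 6.23 times Solyc08g074620, and within the RNAi library it was 0.0816 times as high. How reads that map to more than 1 copy were counted is not stated in the labels. Whether the copies share reads was not examined. The levels of the single copies, and depending on the counting also their sum, are uncertain to an unknown extent. The same holds for the arginases and for the aminopeptidase loci.

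**Figure D3:**
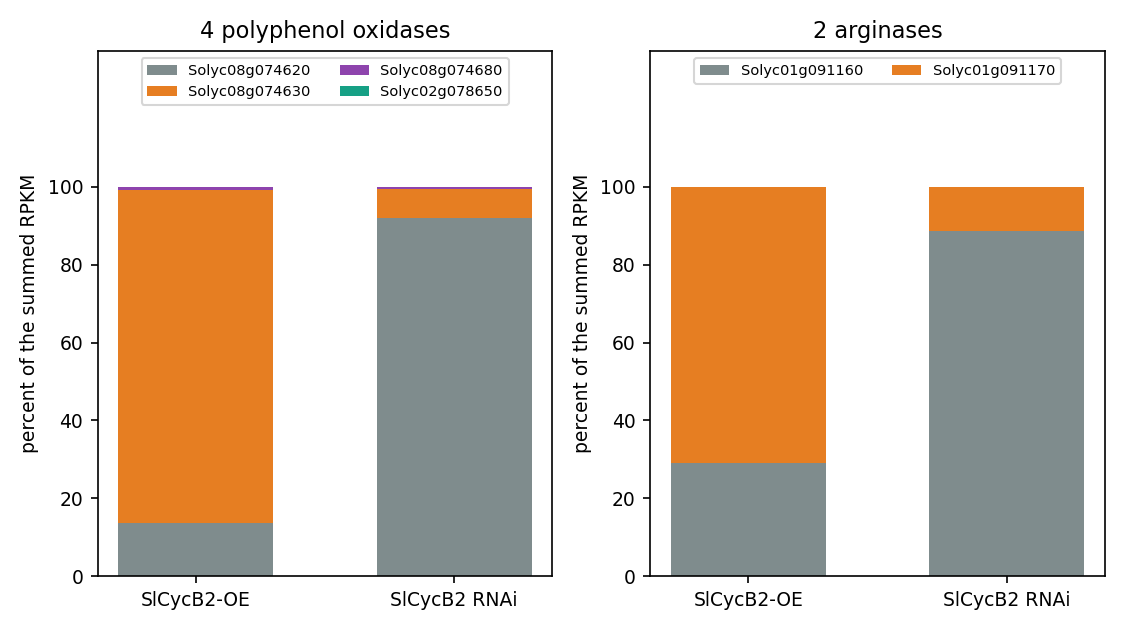
Stacked bars give the percent of the summed RPKM held by each of the 4 polyphenol oxidase genes (left panel) and each of the 2 arginase genes (right panel), with SlCycB2-OE left of SlCycB2 RNAi, 1 library each. In the RNAi library Solyc08g074620 and Solyc01g091160 hold 92.0% and 88.7% of their class; in the OE library Solyc08g074630 and Solyc01g091170 hold 85.4% and 70.8%.

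By level, the order of the 8 genes in the OE library was Solyc08g074630, Solyc08g074620, leucine aminopeptidase A, arginase 2, arginase 1, threonine deaminase 2, Solyc08g074680 and Solyc02g078650. Leucine aminopeptidase A and arginase 2 were only 1.06-fold apart there, and arginase 1 and threonine deaminase 2 1.11-fold. In the RNAi library the order was Solyc08g074620, Solyc08g074630, arginase 1, leucine aminopeptidase A, arginase 2, Solyc08g074680, threonine deaminase 2 and Solyc02g078650. There the first gene was 12.2-fold above the second, and 4 of the 8 genes were under 1 RPKM, against 1 in the OE library. Without replicates, whether neighbours in either order differ beyond their spread is not known. The 4 genes other than the polyphenol oxidases summed to 57.74 RPKM in the OE library, against 6.27 RPKM in the RNAi library, a ratio of 9.21.

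The identifiers around the 8 genes were read in the same way. The 5 identifiers before and the 5 after each gene gave 54 further gene models, of which 37 were compared. Of these 37, 1 passed 2-fold in the higher and 1 in the lower direction, shares near the 2.6% and 1.92% of all genes compared, and their median log2 ratio was 0.10, against 0.13. The higher one was Solyc12g010030 beside leucine aminopeptidase A. The lower one was Solyc02g078690, at 0.07 RPKM in the OE library, against 2.03 RPKM in the RNAi library. The 5 compared neighbours of threonine deaminase 2 had log2 ratios from -0.08 to 0.49, and the 8 of arginase 2 from -0.31 to 0.38, arginase 1 aside. From Solyc08g074600 to Solyc08g074700 the table held 11 identifiers, 3 of them the chromosome 8 polyphenol oxidases of the set. The other 8 comprised 3 listed at 0 in both libraries and 5 that lay within 2-fold, at 1.86 to 8.21 RPKM in the OE library, against 1.83 to 13.29 RPKM in the RNAi library. Of those at 0, Solyc08g074640 and Solyc08g074690 belong to the list of loci related to the enzymes, given below.

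**Figure D4:**
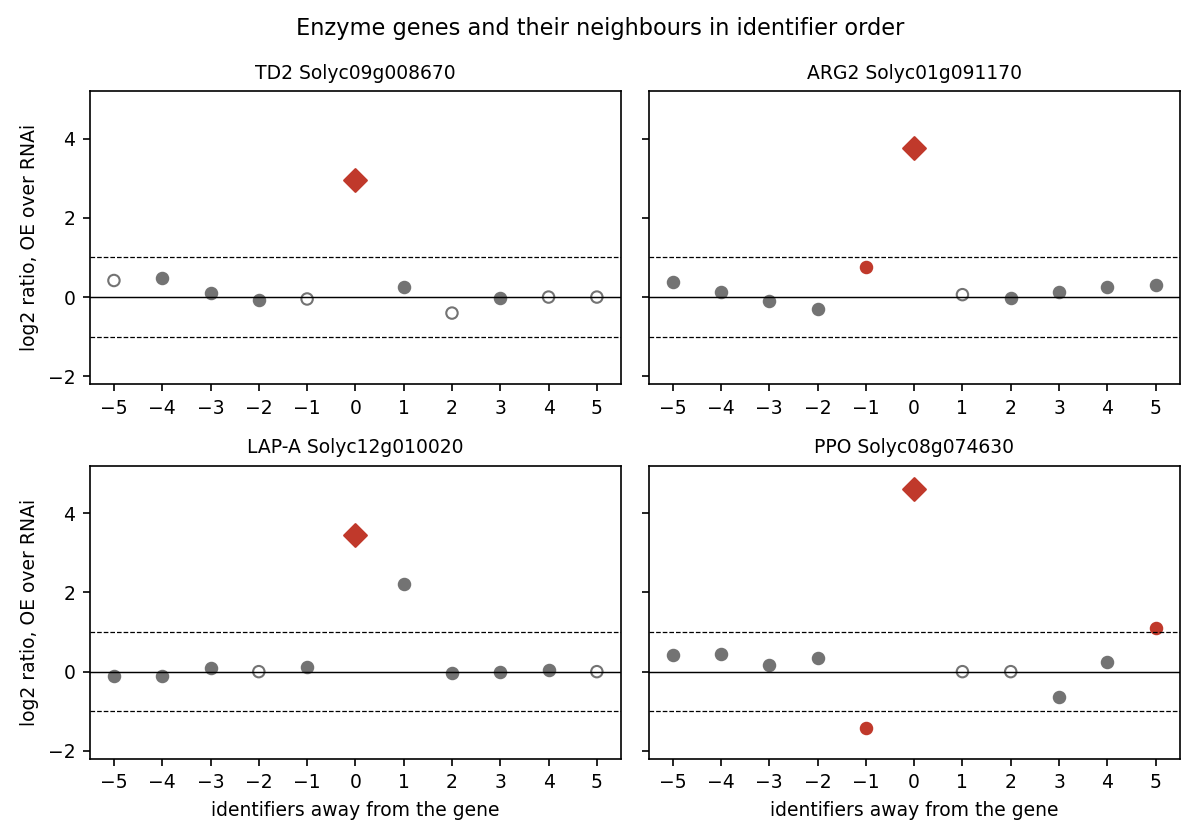
The log2 ratio (SlCycB2-OE over SlCycB2 RNAi, vertical axis) of 4 enzyme genes (diamonds) and of the 5 identifiers on each side (horizontal axis, steps in identifier order); red circles are other enzyme genes of the set, filled grey circles other compared genes, open circles genes with a mean RPKM under 1, and dashed lines 2-fold. Most neighbours lie between the dashed lines, with Solyc12g010030 next to leucine aminopeptidase A at 2.21 and Solyc08g074620 next to Solyc08g074630 at -1.41.

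The enzyme genes were set beside 6 further lists of identifiers, drawn up from textbook knowledge of tomato and not compared with an annotation. Earlier results of these data were known when the lists were chosen. Of 15 proteinase inhibitor loci on chromosomes 3 and 9, 12 were compared. Of these 12, 9 were higher by 2-fold or more, as were 2.6% of all genes compared. In the lower direction 0 passed 2-fold, against 1.92%, and the median log2 ratio was 2.22. Solyc03g020080, Solyc09g084450, Solyc09g084470, Solyc09g089530 and Solyc09g089540 were under 1 RPKM in the RNAi library and entered the comparison through their OE value. The count and median are therefore given as a description. The 15 loci summed to 576.29 RPKM in the OE library, against 104.61 RPKM in the RNAi library. The chromosomes differed. On chromosome 3, Solyc03g020030 was at 23.86 RPKM in the OE library, against 22.41 RPKM in the RNAi library. Solyc03g020040 was at 29.99 RPKM, against 39.27 RPKM, and both lay within 2-fold. The only higher locus there was Solyc03g020080, at 2.49 RPKM in the OE library and listed at 0 in the RNAi library. All other higher loci carried chromosome 9 identifiers. The 7 loci listed for jasmonate synthesis, perception and signalling, with systemin, had a median of 0.24, against 0.135 over all genes compared. Of these 7, 1 was at least 2-fold higher, as were 2.6% of all genes compared, and 6 lay within 2-fold. The higher one, Solyc05g051750, was at 60.21 RPKM in the OE library, against 25.68 RPKM in the RNAi library, a log2 ratio of 1.20. The list of loci related to the 8 enzymes held 7 identifiers, of which 5 were in the table and 3 compared. Besides the pair next to leucine aminopeptidase A, it had Solyc10g083760, which was at 49.63 RPKM in the OE library, against 71.18 RPKM in the RNAi library, a log2 ratio of -0.51.

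Markers of the cells that a leaf sample can hold were read in the same way. The 8 leaf mesophyll loci, for the small subunit of Rubisco and chlorophyll-binding proteins, were abundant in both libraries, at 4240 to 20710 RPKM in the OE library, against 5194 to 25689 RPKM in the RNAi library. All 8 lay within 2-fold, with a median log2 ratio of -0.26. Of the 7 glandular trichome loci for terpenes and acylsugars, 4 were compared. Of these 4, 3 were lower by 2-fold or more, against 1.92% of all genes compared, and 1 was higher, against 2.6%. The 3 lower loci were under 1 RPKM in the OE library and entered the comparison through their RNAi value. The 7 loci summed to 8.2 RPKM in the OE library, against 44.73 RPKM in the RNAi library. In the OE library 3 of the 7 were listed at 0. The higher locus, Solyc01g105890, held most of the OE sum, at 7.54 RPKM in the OE library, against 2.14 RPKM in the RNAi library. The other 6 summed to 0.66 RPKM in the OE library, against 42.59 RPKM in the RNAi library. Fewer cells of a type and less RNA per cell cannot be told apart in whole leaf. Polyphenol oxidases are also made in glandular trichomes, and Solyc08g074620 was lower in the OE library like most of this marker list, while Solyc08g074630 was higher. The part of trichome RNA in these differences was not tested. Of 5 floral organ loci, checked because flowers also make these enzymes, 2 were listed at 0 in both libraries, and the list summed to 7.1 RPKM in the OE library, against 5.74 RPKM in the RNAi library. Solyc02g084630 accounted for most of that sum, at 6.77 RPKM in the OE library, against 5.52 RPKM in the RNAi library.

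**Figure D5:**
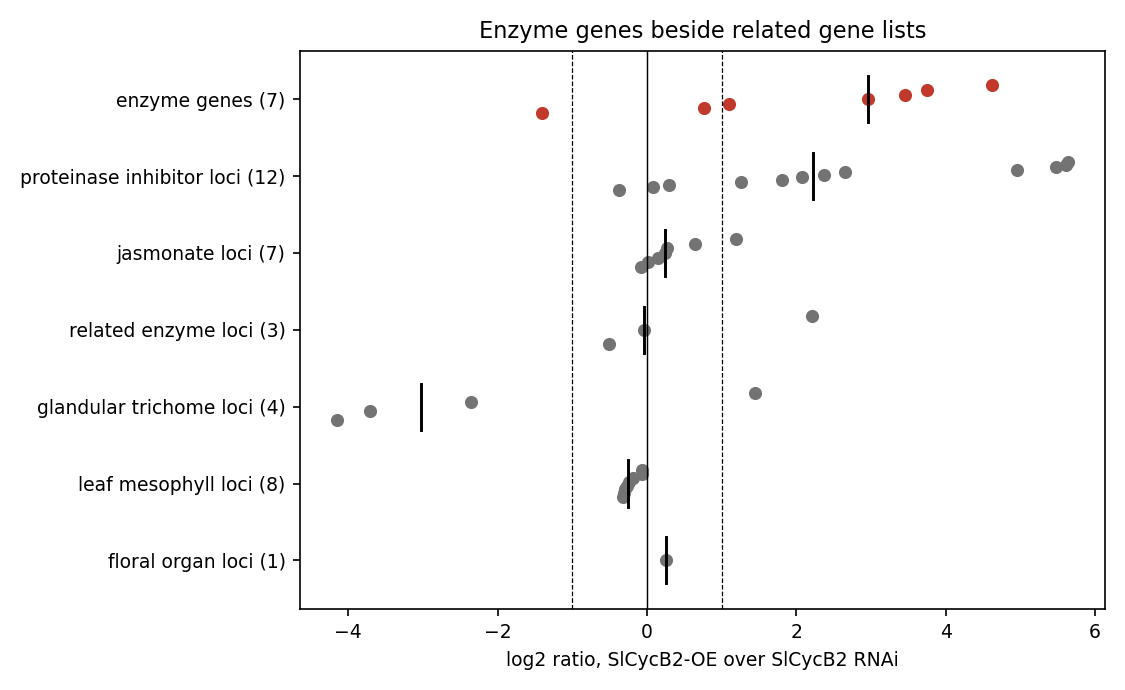
The log2 ratio (SlCycB2-OE over SlCycB2 RNAi) of each compared gene of the enzyme set (red) and of 6 lists of identifiers (grey); vertical bars mark medians, dashed lines 2-fold, and the number of compared genes stands beside each name. The medians are 2.96 for the enzyme genes, 2.22 for the proteinase inhibitor loci, 0.24 for the jasmonate loci and -0.04 for the related enzyme loci. They are -0.26 for the leaf mesophyll loci, -3.03 for the glandular trichome loci and 0.25 for the floral organ loci. Some enzyme, proteinase inhibitor and trichome genes passed the filter on low values only through the library where they were higher.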

How the data were processed

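Leaf was frozen, its RNA isolated with TRIzol and sequenced from standard Illumina libraries, per the labels' protocols. The submitters' processing notes name TopHat, with neither version nor role. For the genome build, annotation and counting method, the sources used here give nothing. The authors deposited RPKM values, per the file headers, rounded to 2 decimals, with 1 value per library for 34725 gene models. From these, log2((RPKM + 1) / (RPKM + 1)), OE over RNAi, was computed for genes averaging 1 RPKM or more, with a 2-fold limit. No p-value was computed, as each group has 1 library. The calculation was tested on simulated data. Names of the enzymes come from the definition of the set. For 4 of the 8 genes, a symbol chosen from the name was found in RefSeq (assembly SLM_r2.1) on the chromosome of the identifier. As 0 of the table's identifiers occur among its 41476 genes, this does not tie a symbol to an identifier. The step of low values was sought in 2589 genes at 0.3 RPKM or more in each library and averaging no more than 1.5, of which 28.0% had ratios within 0.01 (natural log) of a fraction of whole numbers up to 3 at the best step, against 3.79% at the median step. The genes, lists and settings were chosen with earlier results of these data known. All 8 enzyme genes were named, with identifiers up to 5 places away and the listed loci. Python 3.11.15, numpy 2.4.6, pandas 2.3.3 and matplotlib 3.10.9 were used.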

Additional observations from a re-analysis of the deposited data

How the results depend on the processing

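Direction held for the 7 compared enzyme genes under the 8 other settings listed for these genes, wherever the setting gave a value. A change of pseudocount, filter or fold limit cannot turn a sign, and the scalings shifted these ratios by 0.15 at most (log2). The compared ratio nearest to 0 was 0.76, for arginase 1, so these settings could not have changed a direction. The number at least 2-fold higher was 5 as reported, 3 when genes had to average 5 RPKM, which left 5 to compare, and 4 with a pseudocount of 5, with centring on the median ratio and at the 4-fold limit. The number at least 2-fold lower was 1, and 0 at the 4-fold limit. The median log2 ratio of the genes was 4.23 with a pseudocount of 0.1, 1.30 with 5, and 2.03 with no filter on low values, which brings in Solyc02g078650. Solyc08g074680 was at 0.96 after centring and 0.38 with a pseudocount of 5, within 2-fold in both, and at 2.03 with a pseudocount of 0.1, past 4-fold. Threonine deaminase 2 ranged from 1.30 to 5.26 over the pseudocounts. Of 53 values of single genes, 9 moved by more than 1 SD across genes of similar level, each of them with a change of pseudocount, and 0 reversed. In a further setting, added once the values were known, copies that may share reads were summed: Solyc08g074620 with Solyc08g074630 gave 1.29, which turns the direction of Solyc08g074620 and is smaller than the 4.62 of Solyc08g074630, the arginases gave 2.28, and Solyc12g010020 with Solyc12g010030 gave 3.19. Depth is unknown, so counting error cannot be given. No replicate could be left out. No paired analysis was possible because each group consists of 1 library.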
